A study of Caenorhabditis elegans with 4 samples.

Results

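The regions described here are the SKN-1::GFP binding regions in the centre of chromosome V of the worm Caenorhabditis elegans. They were taken by position alone: a region belongs to the centre when its midpoint lies from 5900000 to 16550000 on V in the WS180 build, the part of this chromosome in which recombination is rare. Of the 7714 regions in the authors' deposited list, 1223 lie on V and 710 of these in its centre, against 309 on the left arm and 204 on the right. The q values of the list imply 14281 tested regions on all chromosomes, of which 54.0% were listed. How many were tested in the centre of V was not analysed here, so the share listed cannot be set against that background.

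The chromatin came from fed L1 hermaphrodites of strain OP178 at 20 °C, which carries the mutation unc119(ed3) and the transgene wgIs178, a fusion of skn-1 to TY1, EGFP and FLAG together with unc119. The ChIP group (2 libraries) was precipitated with goat antibodies against GFP and the input group (2 libraries) was not, and both groups share this genotype, so all worms carried the tagged SKN-1 and the unc-119 copy. The transgene was introduced by bombardment and the line was outcrossed. The labels name no promoter, no cell type and no untagged control strain, and 1 protocol text speaks of embryos where the stage label reads fed L1. The deposited list combines the 4 libraries, so no spread between replicates can be given, and the whole worm is sampled, so more bound cells and more binding per cell cannot be told apart.

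SKN-1 is the worm relative of the Nrf transcription factors. It switches on detoxification and antioxidant genes, above all in the intestine, and its maternal protein sets the fate of the cells that make gut and muscle in the early embryo. The autosomes of this worm have gene-dense centres, where genes are often conserved, broadly expressed and joined in operons. Their arms hold more repeats and more young gene families, and those of V are known for large families of chemoreceptor genes. The positions of genes on WS180 were not used here, so no gene is assigned to a region.

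Listed regions were denser per Mb in the centre of V than on its arms, and they covered more of it. The centre held 66.7 regions per Mb (exact Poisson 95% interval 61.9 to 71.8), the left arm 52.4 (46.8 to 58.6) and the right arm 47.2 (40.9 to 54.1). The 710 central regions made up 58.1% of those of V on 51.04% of the length between its first and last region. The centre thus had 1.33 times the regions per Mb of both arms together (1.18 to 1.49), 1.27 times those of the left arm (1.11 to 1.46) and 1.41 times those of the right (1.21 to 1.66). By two-sided exact binomial tests on length, adjusted over 4 comparisons, p was 3.87e-06, 0.000541 and 1.64e-05. The arms differed by 1.11 times, left over right (0.929 to 1.33, exact adjusted p = 0.246). Intervals and p values cover counting error only, and neighbouring regions are not independent, so these p values are too small. Central regions covered 331.4 kb, or 3.11% of the centre, against 2.16% of the left arm and 1.60% of the right. That coverage was 1.62 times that of the arms. Lengths were not corrected for stretches to which reads cannot be mapped. The list's limit on p also admits lower ratios where input tags are more, and central regions had more of them (median 25 against 17 on the arms). The part of either in the density and coverage was not tested.

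Within the centre the density peaked near the middle. In 3 equal stretches from left to right there were 217, 288 and 205 regions, or 61.1 per Mb (53.3 to 69.8), 81.1 (72.03 to 91.1) and 57.7 (50.1 to 66.2). The interval of the middle stretch lies above those of both outer stretches. Without the middle stretch the density of the centre was 1.18 times that of the arms (1.04 to 1.35, exact binomial p = 0.0105, an alternative chosen after the values were seen). In 20 windows of 500 kb inside the centre the lowest count was 16, the median 33.5 and the highest 50, and in 19 windows on the arms they were 9, 25 and 37. The ranges overlap, and the variance of the counts was 2.47 times their mean in the centre and 2.36 times on the arms. Counts thus varied more than counting error alone, so the intervals of these densities are too narrow and the p of 0.0105 is too small.

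**Figure D1:**
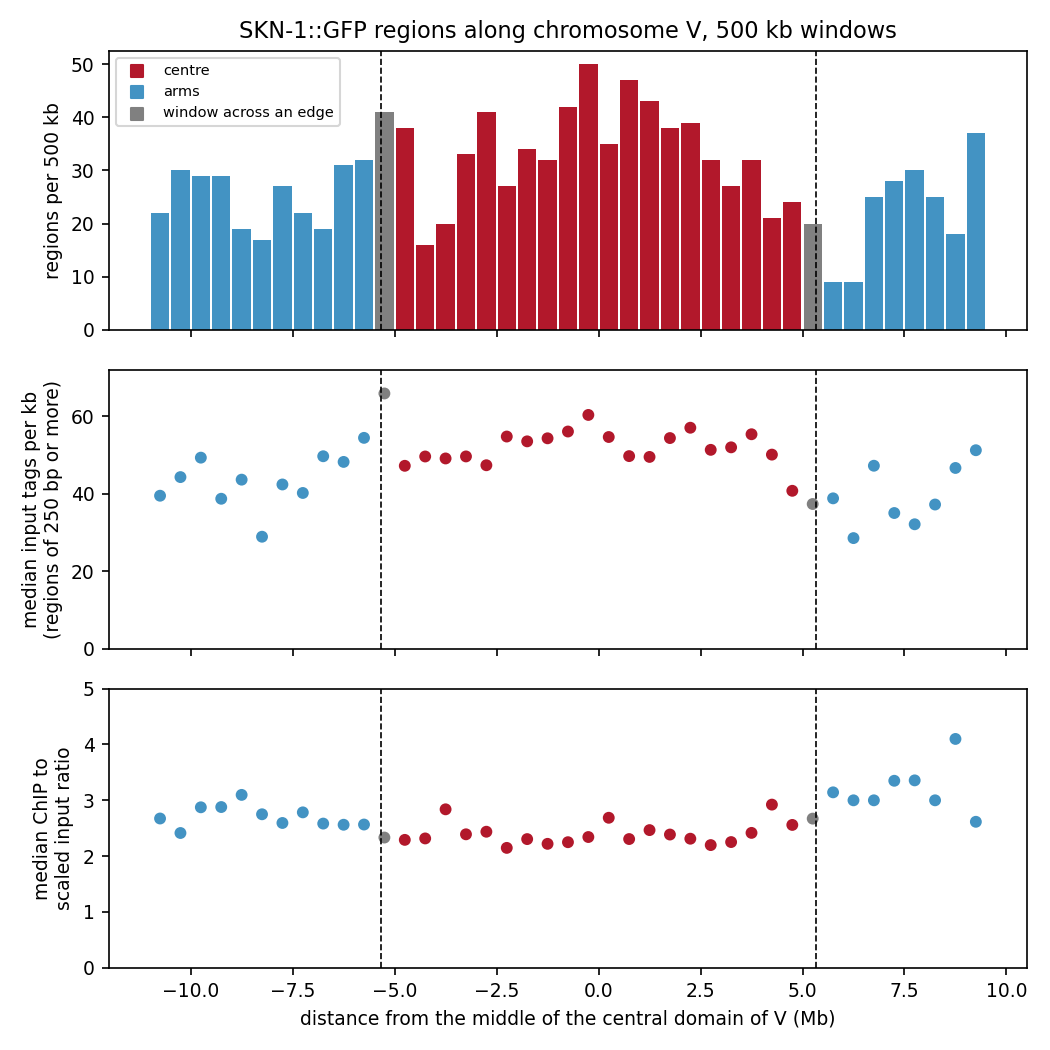
Regions per 500 kb window (top), median input tags per kb of regions of at least 250 bp (middle) and median ChIP to scaled input ratio (bottom), by distance in Mb from the middle of the central domain. Each bar or point is 1 window, dashed lines mark the domain edges, and grey marks windows across an edge. Counts peak at 50 near the middle of the centre, and central ratios lie between 2.15 and 2.92.

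Counts beside the edges of the domain are given as values, and a difference between the edges was not tested. In the Mb outside the left edge lay 65 regions and in the Mb inside it 72, so no step in number was seen there. In the Mb inside the right edge lay 47 regions and in the Mb outside it 24. The last region before the left edge (5850561 to 5850953, ratio 1.70) and the first after it (5917685 to 5918054, ratio 2.14) had intervals that overlap, 1.07 to 2.84 and 1.50 to 3.11. Beside the right edge lay the regions at 16537830 to 16538408 (2.28, 1.46 to 3.73) and 16591903 to 16592612 (2.50, 1.71 to 3.77). No central region had its midpoint within 10 kb of an edge.

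The densest 100 kb window of the centre, 11800001 to 11900000, held 16 regions. The windows 11000001 to 11100000 and 11500001 to 11600000 held 14 each, so the 3 densest all lay in the middle stretch. Of the 106 full windows of the centre 1 was empty, against 8 of 100 on the arms, and the mean was 6.69 against 5.01. The empty window, 7600001 to 7700000, fell in the longest stretch of the centre without a region, 138 kb from 7588018 to 7726293. The next longest were 114 kb from 8785884 to 8899594 and 110 kb from 8663425 to 8773746, all in the left stretch. Gaps of 100 kb or more numbered 5 in the centre and 7 on the arms, where the longest spanned 336 kb.

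The 4 widest regions of V lay in the centre. Over all 710 central regions the median width was 354.5 bp (exact 95% interval of the median 340 to 369), with quartiles of 200 and 541 bp. The median was 353 bp (327 to 381) on the left arm and 252 bp (200 to 307) on the right, so the right arm had the narrower regions. Over the whole list it was 349 bp (343 to 353), close to the centre. Regions under 100 bp made up 13.2% of the centre (exact binomial 95% interval 10.8 to 15.96), 15.9% of the left arm (11.97 to 20.4) and 22.1% of the right (16.6 to 28.4). In the whole list they made up 13.6%. Regions of at least 1000 bp numbered 47, or 6.62% (4.90 to 8.71), against 21, or 4.09% (2.55 to 6.19), on both arms, and these intervals overlap. The share of such regions in the whole list, 5.67%, lies inside the central interval. The 47 broad regions held 28.4% of the covered bases of the centre and 26.5% of its ChIP tags.

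Enrichment per listed region was lower in the centre than on the arms. The ratio of ChIP to scaled input tags, which the q values encode, had a central median of 2.37 (2.28 to 2.44) with quartiles of 1.94 and 3.00. The median was 2.60 (2.50 to 2.70) on the left arm and 3.00 (2.80 to 3.14) on the right, and 2.50 over the whole list. The 3 intervals do not overlap. A ratio above 2 was reached by 496 central regions, or 69.9% (66.3 to 73.2), against 81.3% (77.6 to 84.6) on the arms. Over the whole list the share was 75.95%. These shares depend on input, since a region of V with 10 input tags before scaling needed a ratio of 2.25 to be listed. Up to 9 such tags were found in 22.3% of central regions and 36.5% of those on the arms. All central tags together gave 91846 ChIP over 40734 scaled input tags, a ratio of 2.25 (2.22 to 2.29), against 2.54 (2.49 to 2.59) on the arms. Both of these intervals cover tag counting only and leave out the spread between regions, so they are too narrow for comparing the domains. All of V shares the input scaling factor of 1.584, so the factor cancels between its parts except for the rounding up of scaled tags, which weighs more at few tags. With input tags before scaling the central median ratio was 0.858 times that of the arms, and with scaled tags 0.874 times.

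**Figure D2:**
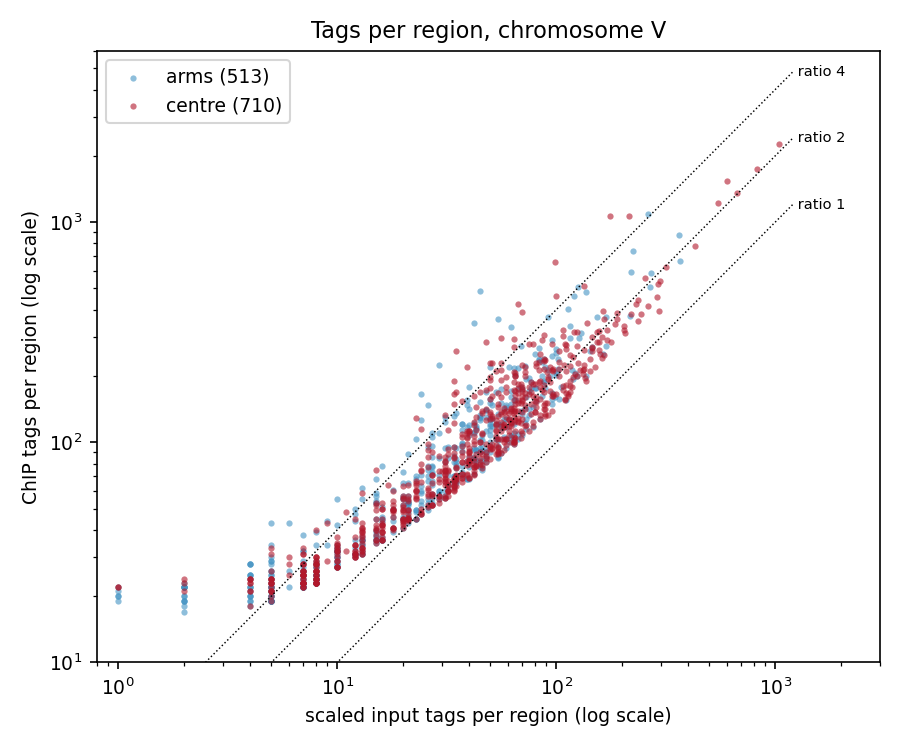
ChIP and scaled input tags of each region on log axes, for the 710 central regions (red) and the 513 regions of the arms (blue). Dotted lines mark ratios of 1, 2 and 4, and the lower edge of the cloud is the list's p limit, which falls from a ratio of 2.88 at 5 input tags to 1.31 at 100.

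The lower ratio went with more input, while ChIP tags per kb differed less. Among regions of at least 250 bp, input tags before scaling had a median of 51.3 per kb in the centre (49.4 to 53.5), 43.6 on the left arm (40.95 to 46.5) and 41.7 on the right (38.2 to 46.3). The central interval lies above both others. Within each class of width from 250 bp upwards the central and left-arm intervals overlapped. At 250 to 499 bp they were 43.5 to 48.1 and 36.2 to 44.3. Against both arms together the central interval lay higher without overlap at 250 to 499 bp (arms 37.0 to 42.6). At 500 to 999 bp it was 52.4934 to 61.4 against 41.7 to 52.4899, narrowly without overlap. At 1000 bp or more the intervals of 64.8 to 73.1 and 47.9 to 66.7 overlapped. Over all these widths the central median was 1.20 times that of both arms, and close to the 52.2 per kb of the whole list. From 250 to under 500 bp it was 1.13 times that of both arms, and at 500 bp or more 1.25 times. ChIP tags per kb had a median of 178 in the centre (169 to 189) and 166 on the arms (156 to 175), 1.07 times, with overlapping intervals. The level of input outside the listed regions was not analysed here, and its part in the lower ratio was not tested.

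The 500 kb windows showed the same order for input. Their medians ran from 40.8 to 60.3 input tags per kb in the centre, around a median of 51.7, and from 28.6 to 54.4 on the arms, around 42.4. At the left edge the input level did not step: it was 51.9 per kb (42.2 to 63.1) in the Mb outside and 51.1 (46.6 to 61.7) in the Mb inside. At the right edge it was 41.5 (35.1 to 51.8) inside and 31.7 (24.9 to 42.6) outside, with overlapping intervals.

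The p limit of the list ties ratio to tag number. At 5 input tags before scaling a region of V needed a ratio of 2.88 to be listed, at 20 tags 1.78 and at 100 tags 1.31. Central regions had a median of 25 input tags before scaling (22 to 26) and those of the arms 17 (14 to 19), so lower ratios could enter the list in the centre. The domains were therefore compared within classes. Within 5 classes of width the central median ratio was below that of the arms in each. It was 3.54 (3.29 to 3.71) against 4.0 (3.80 to 4.40) under 100 bp. From 100 to 249 bp it was 2.59 (2.48 to 2.70) against 3.00 (2.75 to 3.14). In both classes the intervals do not overlap. Classes of width do not hold input equal, however. Under 100 bp the median input tags per kb were 17.8 in the centre and 13.5 on the arms. From 100 to 249 bp they were 25 and 17.9. Lower ratios could thus enter the list in the centre here too, so these classes cannot tell lower enrichment from the p limit. From 250 bp upwards the intervals overlapped, as at 250 to 499 bp with 2.23 (2.13 to 2.35) against 2.43 (2.22 to 2.57).

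Within 6 classes of input tags the central median was again below that of the pooled arms in each, and every pair of these intervals overlapped. With up to 9 input tags it was 3.29 (3.20 to 3.50) against 3.71 (3.43 to 3.93). This class does not hold the p limit equal, as the ratio needed falls from 2.88 at 5 input tags to 2.25 at 10. Its median input tags per kb were 18.4 in the centre and 14.7 on the arms. With 20 to 29 input tags it was 2.08 (2.00 to 2.25) against 2.26 (2.11 to 2.62), and with 30 to 49 it was 2.19 (2.06 to 2.29) against 2.26 (2.00 to 2.40). In the latter class the left arm alone had 2.18 (1.98 to 2.42) and the right arm 2.31 (1.78 to 2.61). With 50 to 99 input tags the centre had 1.90 (1.71 to 2.06) against 2.19 (1.99 to 2.47) on both arms. In that class the left arm, at 2.41 (2.12 to 2.70), lay above the centre with an interval that does not overlap, and the right arm had 1.90 (1.69 to 2.33). The difference within classes was not tested, and overlapping intervals do not show that the ratios were alike. High ratios on many input tags were found in both places at shares whose intervals overlap. Among regions with at least 20 input tags, 20 of 423 central regions had a ratio above 4, or 4.73% (2.91 to 7.21), and 9 of 230 regions of the arms, or 3.91% (1.80 to 7.30). Over all regions the shares were 8.87% (6.89 to 11.2) and 17.9% (14.7 to 21.5), the opposite order, with many arm regions resting on few input tags. In the whole list the share above 4 was 11.5%.

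**Figure D3:**
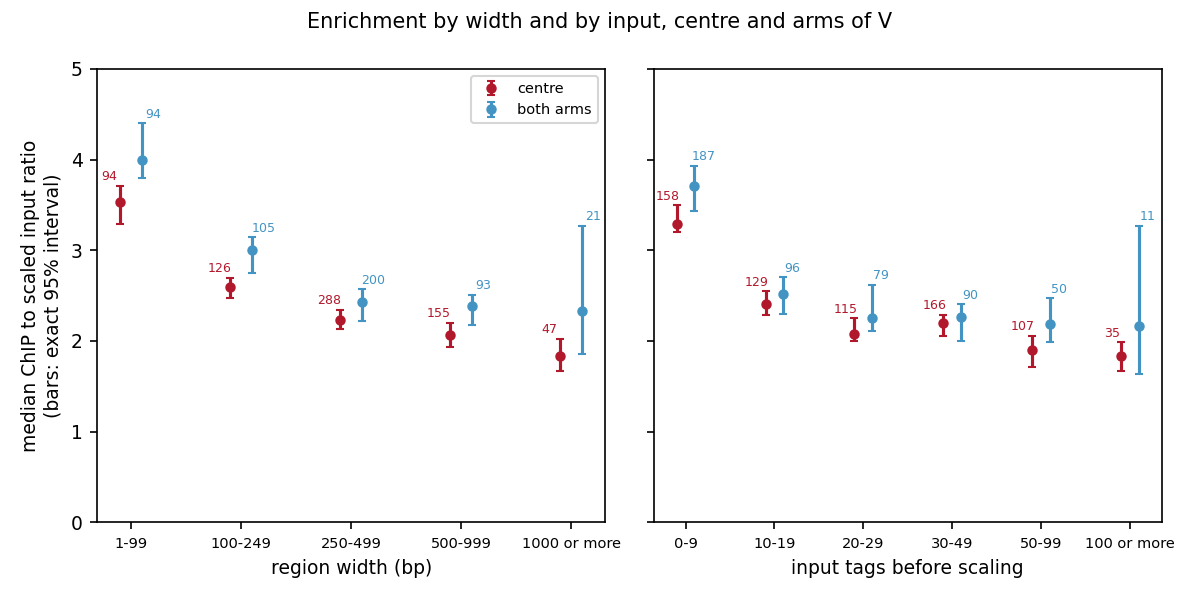
Median ChIP to scaled input ratio by class of region width (left) and of input tags before scaling (right), for the centre (red) and both arms (blue). Bars are exact 95% intervals of the median over regions and small numbers count regions; the centre lies lower in every class, and on the right each pair of plotted intervals overlaps.

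By q, unlike by ratio, the centre and both arms together were close to each other, with overlapping intervals. Of the central regions 156, or 21.97% (19.0 to 25.2), were in the best 25% of the list, against 21.8% (18.3 to 25.7) on the arms. A q under 1e-10 was reached by 114 central regions, or 16.1% (13.4 to 18.97), and by 15.01% (12.03 to 18.4) on the arms. The share over the whole list was higher, 18.6% (17.8 to 19.5), with an interval that overlaps both. Taken apart, the left arm had 17.8% (13.7 to 22.5) and the right arm 10.8% (6.88 to 15.9). The best 50% of the list held 45.4% (41.6 to 49.1) of central regions and 45.2% (40.9 to 49.6) of those on the arms, both intervals below 50%. The 100 best-ranked regions of the list included 18 of V, 12 of them central. That was 1.69% of central regions (0.876 to 2.93), against 1.17% (0.430 to 2.53) on the arms and 1.30% over the whole list. These intervals overlap, and the central one holds the share of the list.

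The 10 central regions with the smallest q were of 2 kinds: regions of at most 2353 bp with a high ratio, and regions of at least 4515 bp with many tags. The first, at 15879982 to 15881855, had 1062 ChIP tags over 176 scaled input tags (ratio 6.03, exact 95% interval 4.96 to 7.41) and rank 10 in the list. The region at 14011659 to 14014011 followed with 1067 over 214 (4.99, 4.17 to 6.01), and that at 6017520 to 6018349 with 657 over 99 (6.64, 5.15 to 8.83) on 830 bp. Further narrow regions lay at 11982229 to 11982719 (423 over 67, ratio 6.31, 4.62 to 8.95), 9088555 to 9089315 (461 over 100, ratio 4.61, 3.54 to 6.11) and 10709326 to 10709875 (392 over 70, ratio 5.60, 4.11 to 7.87). By ratio these 6 could not be put in order, since their intervals overlap.

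The other 4 of the 10, all wider, had ratios from 2.13 to 2.55. The widest region of the centre, 7866 bp at 6223308 to 6231173, had 2252 ChIP tags over 1037 scaled input tags (2.17, 1.99 to 2.38). The region at 14684666 to 14689180 (4515 bp) had 1529 over 599 (2.55, 2.28 to 2.87), and that at 14847053 to 14852024 (4972 bp) 1226 over 545 (2.25, 1.99 to 2.54). The region at 10714942 to 10720822 (5881 bp) had 1751 over 823 (2.13, 1.93 to 2.35). A further broad region, 5773 bp at 8934286 to 8940058, had 1350 over 666 (2.03, 1.82 to 2.27) and rank 88. These 5 widest regions held 8.75% of the covered bases and 8.83% of the ChIP tags of the centre. On the arms the widest region had 4570 bp and the 5 widest reached down to 2439 bp. Over the 47 broad central regions the ratio lay between 1.34 and 6.03 (median 1.83), and 17 exceeded 2. The 21 broad regions of the arms had a median of 2.33, and 14 exceeded 2.

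**Figure D4:**
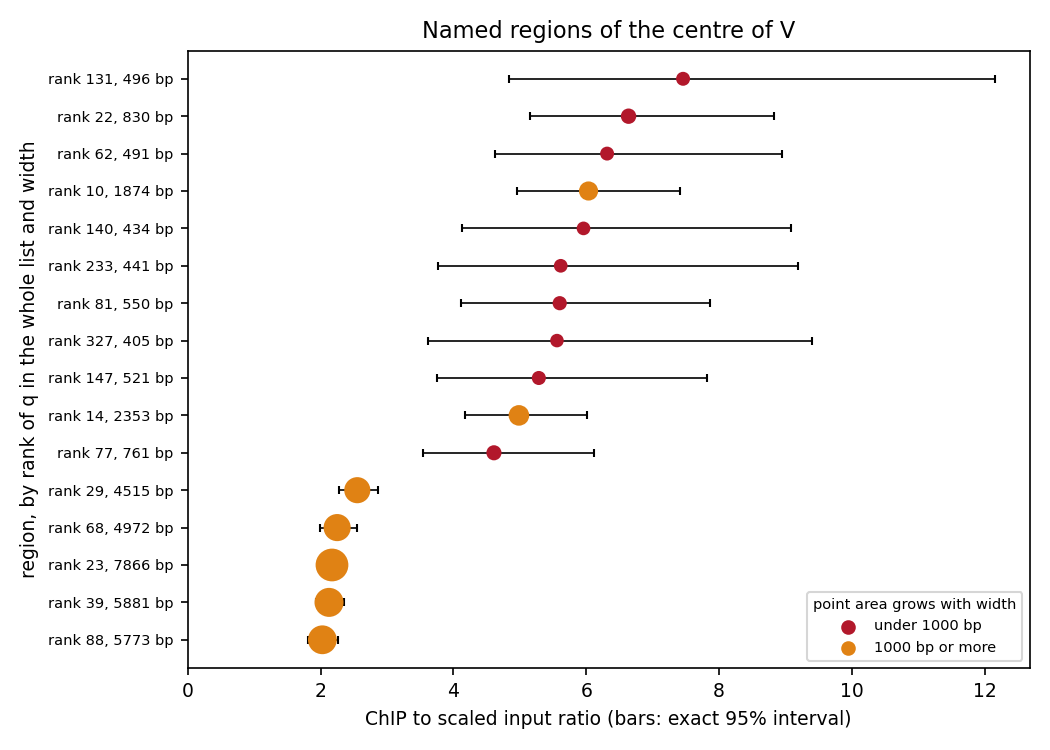
ChIP to scaled input ratio of the named central regions, with exact 95% intervals; each row gives the rank by q in the whole list and the width, and point area grows with width. Regions of 405 to 2353 bp lie between 4.61 and 7.46, and the 5 widest between 2.03 and 2.55.

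The 10 highest ratios among central regions with at least 20 input tags ran from 4.99 to 7.46. The region at 11516142 to 11516637 led with 261 ChIP over 35 scaled input tags (7.46, 4.84 to 12.2) on 496 bp and rank 131. Of the 10, 5 were also among the 10 with the smallest q, and none among the 5 widest. The other 4 lay at 6206491 to 6206924 (286 over 48, ratio 5.96), 10769991 to 10770431 (219 over 39, ratio 5.62), 7413061 to 7413465 (189 over 34, ratio 5.56) and 14423156 to 14423676 (296 over 56, ratio 5.29), all 405 to 521 bp wide. Selection for a high ratio favours upward counting error, so these values may overstate enrichment. On the arms the 10 highest ran from 3.99 to 10.8, but they came from 230 regions and the central ones from 423, so the 2 sets are not compared.

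The short-range spacing of regions, not adjusted for density, was close in the centre and on the arms, and it was not tested. A denser domain has closer neighbours even at random placement, so these values do not show that clustering was alike. In windows of 100 kb the variance of the counts was 1.73 times their mean in the centre and 2.29 times on the arms. Another midpoint lay within 2 kb of 210 central regions, or 29.6%, against 28.5% on the arms, and within 5 kb of 61.0% against 56.7%. The median distance to the nearest midpoint was 3436 bp (3034 to 3820) in the centre and 3772 bp (3310 to 4544) on the arms. When regions were chained over gaps of at most 2 kb, 268 central regions, or 37.7%, fell into 107 runs, against 36.3% on the arms. Runs of 5 or more regions numbered 7 of 107 in the centre and 2 of 81 on the arms. These counts are small and not adjusted for density, and they were not tested.

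The longest runs had 7 regions each. The first, 10708437 to 10727082, spanned 18646 bp, of which 12922 bp were covered, and held 3342 ChIP over 1671 scaled input tags. It joined 2 of the 10 regions with the smallest q, the compact one at 10709326 (ratio 5.60) and the broad one at 10714942 (2.13). The 3 other broad regions of the run had ratios of 1.34 (1.12 to 1.60), the lowest of the centre, 1.59 (1.32 to 1.91) and 1.51 (1.20 to 1.92). The 2 narrow regions at its ends had 2.57 (1.41 to 5.24) and 2.50 (1.57 to 4.34). The run thus held compact strong and broad weak enrichment side by side.

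**Figure D5:**
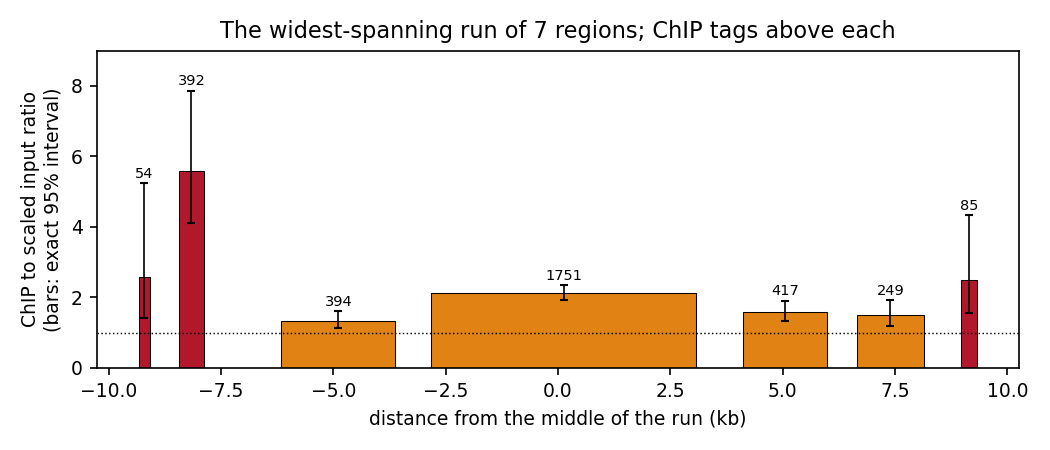
The run of 7 regions spanning 18646 bp, by distance in kb from its middle. Bar width is region width and bar height the ChIP to scaled input ratio with its exact 95% interval; orange marks regions of at least 1000 bp, numbers are ChIP tags, and the tallest bar, 5.60, belongs to a region of 550 bp.

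The second run of 7, at 12294228 to 12303821, covered 4112 bp of its 9594 bp with 930 ChIP over 442 scaled input tags. Its ratios ran from 1.53 to 2.74, and the region of highest ratio stood at its right end (12303363 to 12303821, 222 ChIP over 81 scaled input tags). A run of 6 at 10855529 to 10862213 had 682 over 413, with ratios from 1.47 to 2.91 and a best rank of 3763. Neither held a region among the 10 with the smallest q. Whether the regions of a run are pieces of 1 broader enriched stretch was not tested.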

How the data were processed

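The authors deposited 1 list of regions for the combined libraries, with coordinates on WormBase WS180 per the file headers and PeakSeq in its source column. Its only measurement is a q value per region, given by the authors and written in 2 columns that hold the same text for 7714 regions. Aligner, caller settings and library depth: not given in the sources used here. Tags were recovered from the q values: each equals p × 14281 / (rank + 1), with p a lower binomial tail at probability 0.5, to within 9.49e-13 in the natural log (tolerance 1e-09). All 1223 regions of V gave a single tag pair. That the larger number is ChIP and the smaller scaled input rests on knowledge of PeakSeq. On V, 98.2% of scaled input tags fall on rounded-up multiples of 1.584, which was read as the scaling factor; dividing by it gave input tags before scaling.

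Lengths run from the first start on V, 8000, to its last end, 20875072, with edges at 5900000 and 16550000. Densities were compared by exact binomial tests, ratios carry exact (Clopper-Pearson) intervals over tags, and medians exact intervals from order statistics; all take the factor as known and regions as independent. Tags per kb use the width extended by 200 bp and leave out regions narrower than 250 bp, except where a narrower class of width is named. Named regions are the 10 of smallest q, the 10 of highest ratio with at least 20 input tags, the 5 widest, the 3 densest windows, gaps and longest runs, and the neighbours of each edge. The members and rules were chosen with earlier results of these data known. The recovery was tested on simulated data. The work used pandas 2.3.3, SciPy 1.17.1, NumPy 2.4.6 and Python 3.11.15. No sequence is shown, as no genome on WS180 was used here.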

Additional observations from a re-analysis of the deposited data

How the results depend on the processing

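Of 31 alternatives, 25 kept their direction and stayed on their side of the threshold or in their interval, 4 moved and 2 turned direction. The density of the centre over the arms stayed between 1.18 and 1.42 times in all 10 alternatives tried, and its exact binomial p between 2.31e-08 and 0.0201. These p values cover counting error only and are too small. In the best-ranked 25% of the list the median width of the centre was 0.954 times that of the arms (main value 1.09), and the median ratio 0.934 times (main value 0.874). With 30 to 49 input tags the ratio was 0.971 times that of the arms. Among regions under 1000 bp alone the ratio of summed tags was 0.920 times that of the arms (main value 0.889) and the covered share 1.44 times (main value 1.62). In the best-ranked 50% the share with a neighbour within 2 kb was 0.793 times that of the arms (main value 1.04). The causes were not tested. No paired analysis was possible because the authors merged the libraries into 1 list; the shared replicate numbers of ChIP and input could not be used, and no replicate could be left out. Depth is most limiting for central regions under 100 bp, with a median of 24 ChIP tags. The alternatives without the middle stretch, the longest runs or the ends of V, those in classes of input tags or width, and the covered share of regions under 1000 bp were chosen after the values were seen.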

Other observations

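The centre of V held 4 regions of a single base, at 9081003, 12407244, 13225417 and 13375682. Each had 23 ChIP tags, over 5, 8, 2 and 7 scaled input tags, with ratios of 4.60, 2.88, 11.5 and 3.29. The 44 single-base regions of the whole list had 18 to 50 ChIP tags, with a median of 22.5. A further 2 central regions, of at most 19 bp, had 1 scaled input tag and 22 ChIP tags each, the highest ratio of the centre. At so few tags these ratios carry wide counting intervals and are given as values only.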
